A study of Mus musculus with 3 samples.

Results

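Valine tRNA fragments are the small RNA reads that the deposited tables assign to tRNA genes decoding valine, the genes named with the anticodons AAC, CAC and TAC. They were chosen by name alone and number 23 of 446 tRNA genes: 8 genes of tRNA-Val-AAC, 12 of tRNA-Val-CAC and 3 of tRNA-Val-TAC, called Val-AAC, Val-CAC and Val-TAC here. Mouse epididymis, through which sperm pass and mature after leaving the testis, was compared between 1 wild-type library, also marked B6WT in the labels, and 2 libraries of Alkbh3-/- mice, called knockout 1 and knockout 2. The 2 knockout libraries carry different numbers, but no label says that they came from separate animals, and the sources used here give neither age, strain beyond the marks, epididymal region nor the kind of Alkbh3 allele. RNA of 15 to 50 nt was cut from a gel before library making. The design text names the small RNA difference between the genotypes as the question.

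A tRNA can be cut in its anticodon loop, which leaves a 5′ and a 3′ piece, and shorter fragments arise from cuts elsewhere. ALKBH3 is a demethylase that removes methyl groups from 1-methyladenosine and 3-methylcytidine of tRNA. Valine is served by 3 kinds of tRNA that differ in the anticodon: Val-AAC, whose first anticodon base is changed to inosine and whose anticodon loop is a substrate of the methyltransferase DNMT2, Val-CAC and Val-TAC. Fragments of Val-CAC and Val-AAC belong to the known tRNA fragments of the epididymis and of maturing sperm.

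The valine gene with most reads assigned to it, tRNA-Val-CAC-2-5, shows how the read lengths described here relate to the anticodon. It lies on the minus strand at chr13:23446142-23446214 of mm10 (GRCm38), in no GENCODE gene, and its sequence was read from RefSeq (GRCm38.p6). In the first line the anticodon, bases 34 to 36 of 73, is in capitals. The lines after it are the first 29 and the first 32 bases, since reads of 29 and 32 nt form 2 peaks of the length profile. The tables give read lengths and no read positions, so where a read begins on the tRNA is not known.
Val-CAC-2-5: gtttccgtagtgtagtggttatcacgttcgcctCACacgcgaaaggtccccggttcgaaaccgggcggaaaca
First 29 bases: gtttccgtagtgtagtggttatcacgttc
First 32 bases: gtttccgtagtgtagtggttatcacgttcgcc
A stretch of 33 bases from the start thus ends just before the anticodon, and only one of 34 or more reaches it.

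The libraries held 15107055, 15411457 and 21169908 reads in the wild type, knockout 1 and knockout 2, and this order is kept for every group of 3 values here. Reads of the tRNA class made up 44.7%, 36.5% and 38.1%, and miRNA reads 15.1%, 24.8% and 30.7%. Levels are given in RPM, reads per 1000000 reads of the library total, so a class that takes more of a library lowers the RPM of the others. The tables hold tRNA genes and RNA classes only, so neither the tissue nor the loss of Alkbh3 could be checked against a marker. Between the knockouts the counts over the valine genes gave a chi-square per degree of freedom of 2.16, and between the wild type and each of them 28.0 and 28.1. Over all tRNA genes the values were larger, 38.5 between the knockouts and 626 and 749 against the wild type. Copies that share reads are not independent, so these values only describe the libraries. Tests set both knockouts against the wild type with edgeR's quasi-likelihood test with Benjamini-Hochberg adjustment over every feature of a table. The lone wild type is assumed to vary like the knockouts, and p-values measure only the spread between these libraries, which may be technical.

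Val-CAC was the most abundant valine tRNA in each library, followed by Val-AAC and then Val-TAC. Val-CAC had 84073, 55273 and 101863 reads, or 5565, 3586 and 4812 RPM. Val-AAC had 30470, 21889 and 39904 reads, or 2017, 1420.3 and 1885 RPM. Val-TAC had 3048, 1541 and 2705 reads, or 202, 100.0 and 128 RPM. These 3 ranges did not overlap, and among all anticodons in the wild type they held ranks 5, 7 and 14.

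Both knockouts lay below the wild type for all 3 valine tRNAs. The knockout means were 4199 ± 866 RPM for Val-CAC, 1653 ± 329 for Val-AAC and 114 ± 19.6 for Val-TAC (SD, n = 2). Knockout 1 stood at 0.644, 0.704 and 0.496 times the wild type in Val-CAC, Val-AAC and Val-TAC. Knockout 2 stood at 0.865, 0.935 and 0.633 times. In Val-AAC and Val-CAC knockout 2 was thus nearer to the wild type than to knockout 1, and in Val-TAC nearer to knockout 1. Both knockouts were also below the wild type for 24 of all 45 anticodons tested (53.3%).

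**Figure D1:**
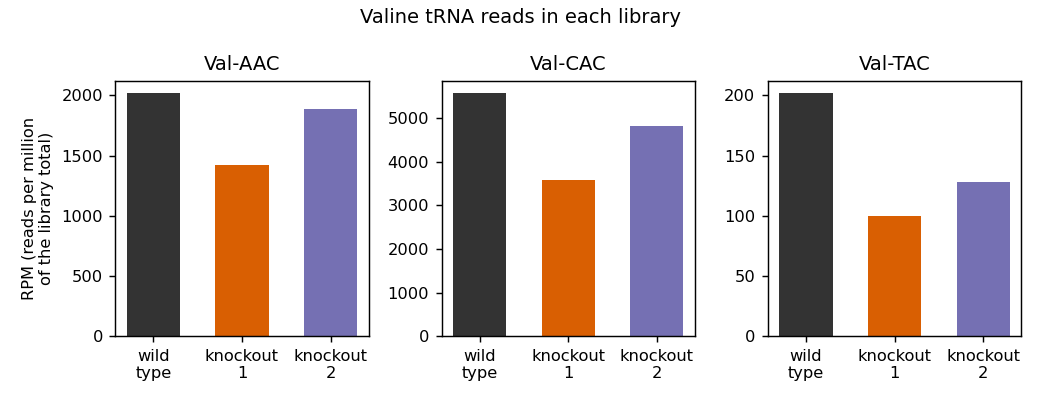
RPM (reads per 1000000 of the library total) for the 3 valine tRNAs in each of the 3 libraries, 1 bar per library, with the vertical axes starting at 0 and scaled separately. The wild type is the highest bar in each panel, and knockout 1, at 3586 RPM for Val-CAC, the lowest.

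None of these differences passed the test. In edgeR's quasi-likelihood test the log2 fold change was -0.82 for Val-TAC (SE 0.46, adjusted p = 0.267), -0.41 for Val-CAC (SE 0.35, adjusted p = 0.458) and -0.29 for Val-AAC (SE 0.46, adjusted p = 0.677). Of all 45 anticodons 5 passed (11.1%), 1 of them higher (2.22%) and 4 lower (8.89%) in the knockouts. With TMM factors these were 4 and 4, and with miRNA reads left out of the library size 0 and 0. Of the 3 valine tRNAs 0 passed edgeR's quasi-likelihood test, also 0 at an unadjusted p under 0.05 and 0 by DESeq2. The median over all anticodons was itself -0.29, so Val-AAC lay 0.01 above it, Val-CAC 0.11 and Val-TAC 0.53 below it on the log2 scale. Scalings that took this median to between -0.05 and -0.01 moved Val-AAC to between -0.04 and 0.02, its sign turning under DESeq2, while Val-TAC stayed between -0.58 and -0.52. The miRNA share given above was higher in both knockout libraries than in the lone wild-type library. With miRNA reads left out of the library size, the log2 fold changes were -0.04 for Val-AAC, -0.16 for Val-CAC and -0.58 for Val-TAC.

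Measured within the tRNA reads, the valine tRNAs as a whole did not set the wild type apart. They made up 2.93%, 2.36% and 3.03% of the gene table, with Wilson 95% intervals of 2.91 to 2.95%, 2.34 to 2.37% and 3.02 to 3.05%. The wild type lay between the knockouts. Within valine, Val-CAC held 71.5%, 70.2% and 70.5% of the reads and Val-AAC 25.9%, 27.8% and 27.6%. Val-TAC held 2.59%, 1.96% and 1.87%, with intervals of 2.50 to 2.68%, 1.86 to 2.06% and 1.80 to 1.94%. Its knockout mean was 1.92% ± 0.0606 (SD, n = 2). The intervals, which cover counting error only, of both knockouts lay below that of the wild type for Val-TAC and above it for Val-AAC. They do not cover how reads shared by Val-AAC and Val-CAC genes were counted.

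The reads came from 21 of the 23 genes. The genes tRNA-Val-AAC-6-1 and tRNA-Val-CAC-8-1 were listed at 0 in every library, as were 36 of all 446 tRNA genes, and tRNA-Val-CAC-5-1 and tRNA-Val-CAC-7-1 had at most 3 reads each. All 21 genes with coordinates coincide with a RefSeq tRNA gene, 20 of them 73 nt long and 1 of 72 nt. They lie on 8 chromosomes, 10 of them on chromosome 13 between bases 22015791 and 23446214, where they held 43.3%, 44.2% and 43.8% of valine reads. No gene overlaps a GENCODE exon: 16 lie outside any GENCODE gene, 4 within the lincRNA gene 4930557F10Rik and 1 within Gm11290, both on the other strand.

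Among the Val-CAC genes tRNA-Val-CAC-2-5 stood out. It had 29086, 18563 and 33841 reads, 34.6%, 33.6% and 33.2% of all Val-CAC reads. In the usual tRNA naming the first number groups genes by mature sequence and the second counts the copies, and the other 4 copies of group 2 were nearly alike, with 12803 to 13036 wild-type reads each. The count of tRNA-Val-CAC-2-5 was 2.25, 2.18 and 2.14 times their mean. If these copies share a mature sequence, their reads cannot be told apart, and the reason for the different count was not tested. Its level was 1925, 1204 and 1599 RPM, with both knockouts below the wild type (log2 fold change -0.46, SE 0.25, edgeR's quasi-likelihood test, adjusted p = 0.361).

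The 2 Val-AAC-1 genes led Val-AAC, each with somewhat fewer reads than each of the 4 alike Val-CAC-2 genes. The gene tRNA-Val-AAC-1-1 (chr3:30601270-30601342, plus strand) had 12117, 8149 and 14971 reads, and tRNA-Val-AAC-1-2 (chr11:48856637-48856709, plus strand) had 11770, 7997 and 14908. The Val-AAC gene next in order, tRNA-Val-AAC-5-1, had 3015, 2085 and 3840. Its wild-type level was 199.6 RPM against 802 RPM for tRNA-Val-AAC-1-1.

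Genes low in reads varied: tRNA-Val-CAC-6-1, at 28.5, 16.7 and 21.8 RPM, was lower in both knockouts, but a group of others was not. The gene tRNA-Val-AAC-2-2 had 68.5, 70.3 and 88.2 RPM, tRNA-Val-AAC-3-1 had 68.1, 68.8 and 84.8 RPM, and tRNA-Val-CAC-3-1 had 77.3, 74.2 and 88.4 RPM. Knockout 1 and the wild type were close, and knockout 2 was the highest. Their log2 fold changes of 0.21 (SE 0.48), 0.17 (SE 0.48) and 0.07 (SE 0.48) did not pass the test. They had near-equal wild-type counts at 32 nt, as given below, and may not be independent. The gene tRNA-Val-CAC-1-1 also had its wild type between the knockouts, at 87.7, 67.1 and 90.5 RPM, and the sign of its fold change, -0.15 (SE 0.47), turned to 0.11 with TMM factors.

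The 3 Val-TAC genes kept their proportions in all libraries. The gene tRNA-Val-TAC-1-1 (chr19:12011931-12012003, plus strand) had 1569, 776 and 1396 reads, 51.5%, 50.4% and 51.6% of Val-TAC. Its neighbour tRNA-Val-TAC-1-2 starts after a gap of 262 bases and had 744, 377 and 651 reads, and tRNA-Val-TAC-1-3 on the X chromosome (chrX:160766110-160766182, plus strand) had 735, 388 and 658. In each of the 3 genes both knockouts were below the wild type. The log2 fold change of tRNA-Val-TAC-1-1 was -0.84 (SE 0.46, edgeR's quasi-likelihood test, adjusted p = 0.391). The per-library tables give this gene 1124 wild-type reads, fewer than the gene table, for a reason the sources used here do not give. By those tables its share of Val-TAC was 35.03%, 32.2% and 33.9%.

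**Figure D2:**
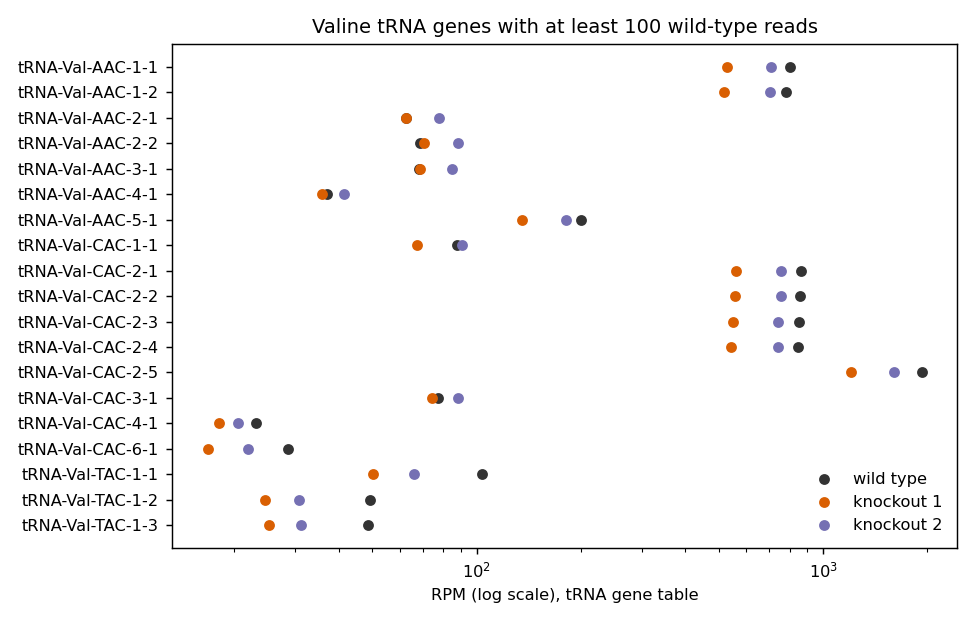
RPM (reads per 1000000 of the library total), on a log axis, for the 19 valine tRNA genes with at least 100 wild-type reads, with 1 point per library. In the Val-TAC-1, Val-CAC-2 and Val-AAC-1 genes the wild-type point is farthest right, while in tRNA-Val-AAC-2-2 and tRNA-Val-AAC-3-1 it is farthest left.

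Across single genes, 41 of 348 tested passed edgeR's quasi-likelihood test (11.8%), 11 higher (3.16%) and 30 lower (8.62%). The lean to lower calls depended on the scaling, with 12 higher and 6 lower under TMM factors, 9 and 12 under column sums, and 0 and 1 when miRNA reads were left out. By the same test 0 of the 19 valine genes that entered it passed. At an unadjusted p under 0.05 the valine count was 0, and DESeq2 called 0, with 2 lower at an unadjusted p under 0.05. Fitted values ran from -0.84 for tRNA-Val-TAC-1-1 to 0.21 for tRNA-Val-AAC-2-2. They were below 0 in 14 of the 19 valine genes and in 231 of all 348. Both knockouts were below the wild type in 13 valine genes (68.4%) against 168 of all genes (48.3%), but copies that share reads are not independent.

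How far the counts can be read by gene was visible in the per-library tables, which list read lengths. At 32 nt the Val-AAC-1 genes had 9600 to 10020 wild-type reads each and the Val-CAC-2-1 to 2-4 genes 9637 to 10073, a ratio of mean reads of 1.01. At 29 nt they had 2753 to 2773 and 2677 to 2752, and at 33 nt 2523 to 2601 and 2552 to 2785. At 34 nt they parted: 622 to 633 reads per Val-AAC-1 gene against 1536 to 1616 per Val-CAC-2 gene, a ratio of 2.51, against 2.30 and 2.38 in the knockouts.

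Above 34 nt the difference was not steady. At 35 nt the ratio was 2.65, 1.79 and 1.68, still in favour of the Val-CAC-2 genes in each library. At 36 to 39 nt the ratio lay between 0.804 and 1.73 over the libraries, and at 38 nt it was 0.992, 0.962 and 1.20.

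A difference at 34 nt was also seen among the lower genes. At 34 nt tRNA-Val-CAC-3-1 had 195 wild-type reads, and tRNA-Val-AAC-2-1, tRNA-Val-AAC-2-2 and tRNA-Val-AAC-3-1 had 24, 13 and 16. At 32 nt the 4 genes had between 916 and 1023. The sources used here do not say how reads matching several genes were counted. Reads of up to 33 nt made up 94.3%, 94.9% and 95.4% of the first read class of Val-AAC and 89.1%, 91.2% and 91.5% of that of Val-CAC. The gene tRNA-Val-CAC-2-5 did not share the common counts, with 25630 wild-type reads at 32 nt.

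**Figure D3:**
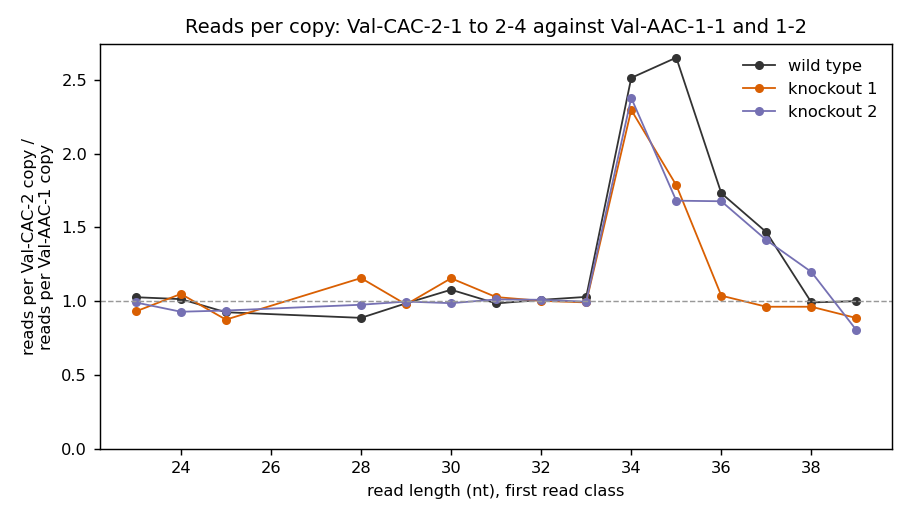
Mean reads per gene of tRNA-Val-CAC-2-1 to 2-4 divided by those of tRNA-Val-AAC-1-1 and 1-2, against read length, for lengths with at least 25 reads per Val-AAC-1 gene in every library. The ratio lies between 0.875 and 1.16 at the 9 lengths up to 33 nt and between 2.30 and 2.51 at 34 nt. At 35 nt it is 2.65, 1.79 and 1.68, and at 36 to 39 nt between 0.804 and 1.73.

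Restricted to reads of 34 nt or longer in the first class, the comparison chosen after these values were seen, Val-AAC had 189.6, 119 and 144 RPM and Val-CAC 980.3, 515 and 667 RPM. Both knockouts were again below the wild type. With edgeR's quasi-likelihood test the log2 fold changes were -0.53 for Val-AAC (SE 0.49, adjusted p = 0.581), -0.73 for Val-CAC (SE 0.40, adjusted p = 0.370) and -0.73 for Val-TAC (SE 0.45, adjusted p = 0.386).

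Grouped by shared counts, a grouping also made after the values were seen, the 6 genes of Val-AAC-1 and Val-CAC-2-1 to 2-4 had 5004, 3253 and 4403 RPM together. Knockout 1 was at 0.650 and knockout 2 at 0.880 times the wild type. The 4 genes of Val-AAC-2, Val-AAC-3 and Val-CAC-3 had 276, 276 and 339 RPM, which puts the knockouts at 0.997 and 1.23 times. Each group holds genes of both anticodons, and the difference between the groups was not tested.

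The per-library tables divide the reads of each gene into 2 read classes without describing them, and the classes separated Val-TAC from the other valine tRNAs. The second class held 50.6% of the wild-type Val-TAC reads, 1624 of 3209, with a Wilson 95% interval of 48.9 to 52.3%. In the knockouts it held 49.3% (46.8 to 51.7%) and 43.1% (41.3 to 44.9%). It held 0.140%, 0.154% and 0.107% of Val-AAC reads and 0.111%, 0.0921% and 0.0925% of Val-CAC reads. Among 24 anticodons with at least 1000 reads in every library the wild-type share of Val-TAC was the highest after those of Met-CAT (74.0%) and Asp-GTC (70.3%). The median was 1.90%.

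In Val-TAC the most frequent length was 34 nt in the first class and 38 nt in the second, in each of the 3 genes and each library. They add up to 72 nt in genes of 73 nt, but where the reads of either class lie on the tRNA is not known. The 34-nt reads made up 50.0%, 52.0% and 51.7% of the first class. The 38-nt reads made up 71.2%, 67.3% and 66.5% of the second class, with 39 nt next at 14.9%, 16.0% and 13.9%.

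Both Val-TAC classes were lower in both knockouts. The first class had 105, 53.4 and 77.0 RPM, and the second 107, 51.8 and 58.2 RPM. For the first class the log2 fold change was -0.69 (SE 0.44, edgeR's quasi-likelihood test, adjusted p = 0.491) and for the second -0.97 (SE 0.44, unadjusted p = 0.0305, adjusted p = 0.214). Of 89 sums per anticodon and class 7 passed (7.87%), 3 higher (3.37%) and 4 lower (4.49%), but 0 with TMM factors or without miRNA reads. Of the 6 valine sums edgeR called 0, with 1 lower at an unadjusted p under 0.05 and 0 called by DESeq2. The 38-nt reads of the second class had 76.5, 34.9 and 38.7 RPM, and the 34-nt reads of the first 52.5, 27.8 and 39.8 RPM. In edgeR's quasi-likelihood test their log2 fold changes were -1.05 (SE 0.55, adjusted p = 0.402) and -0.64 (SE 0.57, adjusted p = 0.675).

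Val-AAC and Val-CAC had few second-class reads, and 38 nt and 31 nt were among their leading lengths. Val-AAC had 38, 9 and 11 reads of 38 nt and 11, 24 and 30 reads of 31 nt, and Val-CAC had 49, 10 and 19 of 38 nt and 26, 36 and 57 of 31 nt. At 38 nt both knockouts were below the wild type in RPM and at 31 nt above it. The 38-nt log2 fold changes, -2.18 for Val-AAC (SE 0.79) and -2.05 for Val-CAC (SE 0.72), did not pass edgeR's quasi-likelihood test (adjusted p = 0.129 and 0.120). At 31 nt they were 1.02 for Val-AAC (SE 0.86) and 0.55 for Val-CAC (SE 0.72), which did not pass edgeR's quasi-likelihood test either (adjusted p = 0.661 and 0.789).

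The first class of both Val-AAC and Val-CAC was led by 32 nt, and that of Val-TAC by 34 nt. At 32 nt Val-CAC had 4477, 2943 and 3765 RPM, 49.9%, 50.4% and 47.9% of its first class. Val-AAC had 1623, 1152 and 1463 RPM at 32 nt, 48.9%, 48.9% and 46.7%. Lower peaks lay at 29 nt and at 23 nt, and at the latter Val-CAC had 3.80%, 5.11% and 5.15% and Val-AAC 5.54%, 7.37% and 7.0%. By gene, 23-nt reads made up 21.4%, 28.4% and 25.9% of the first class of tRNA-Val-AAC-5-1 and 34.2%, 37.8% and 35.2% of that of tRNA-Val-CAC-1-1. In tRNA-Val-CAC-1-1 the most frequent length was 23 nt in both knockouts. The profiles of Val-AAC and Val-CAC differed at 34 nt, with 2.84% and 6.74% of the wild-type reads. In Val-TAC, 31 nt, with 10.5%, 11.3% and 9.26%, came next after 34 nt in every library.

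**Figure D4:**
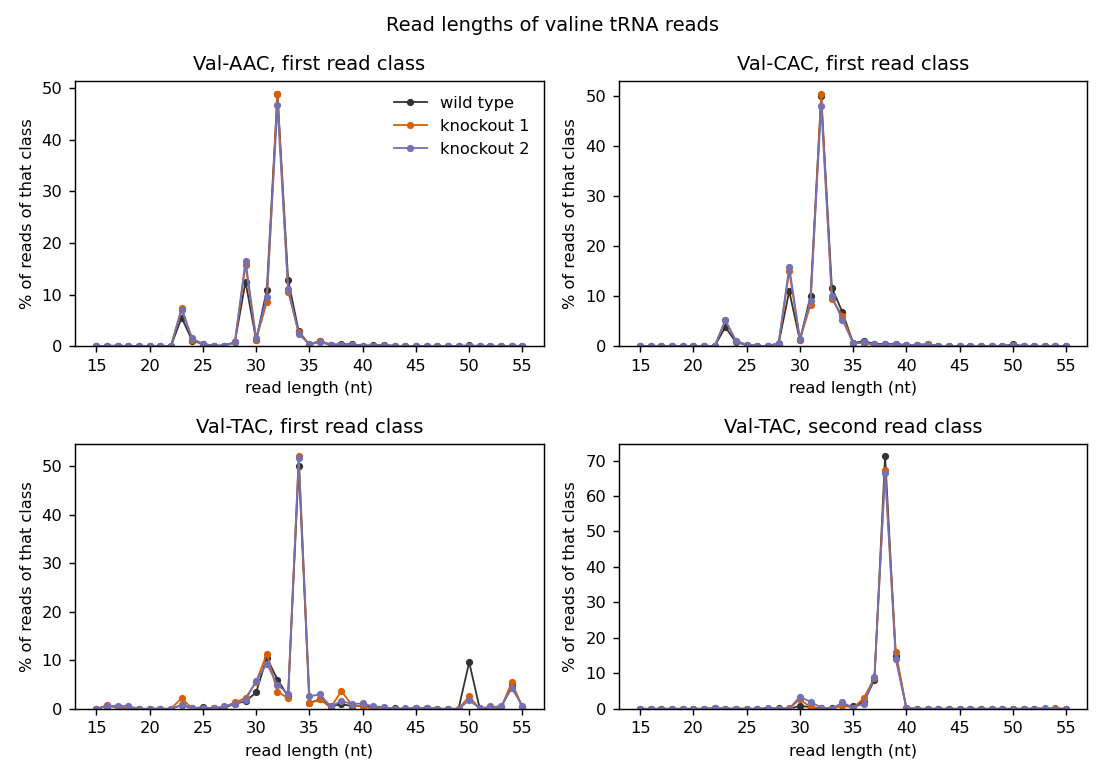
Share of reads at each length in percent of the reads of that class, for the first class of Val-AAC, Val-CAC and Val-TAC and the second class of Val-TAC, with 1 line per library. The peaks at 23, 29 and 32 nt are shared by Val-AAC and Val-CAC, Val-TAC peaks at 34 nt and 38 nt, and 9.59% of first-class Val-TAC reads of the wild type are at 50 nt.

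Within the profiles of Val-AAC and Val-CAC, summed over their genes, the knockouts held more of the shorter and less of the longer reads. The 29-nt reads were 11.0%, 14.9% and 15.8% of first-class Val-CAC reads, and 12.5%, 15.8% and 16.6% of those of Val-AAC. The ratio of 29-nt to 32-nt reads was 0.219, 0.297 and 0.330 in Val-CAC and 0.255, 0.323 and 0.354 in Val-AAC. The ratio of 23-nt to 32-nt reads was 0.0762, 0.101 and 0.107 in Val-CAC and 0.113, 0.151 and 0.150 in Val-AAC. In all 4 ratios both knockouts were above the wild type and closer to each other than to it, but these tRNAs share most of their short reads and are not independent. The 4 genes of Val-AAC-2, Val-AAC-3 and Val-CAC-3 differed in part. Their 23-nt share was 2.10%, 1.94% and 1.83%, and their 32-nt share 58.1%, 63.2% and 61.7%. Their 29-nt share was 5.86%, 6.47% and 6.81%. With 1 wild-type library the shares carry no test.

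The knockout level relative to the wild type was lower at longer reads in Val-CAC, from 25 to 50 nt. It was 0.868 and 1.21 times at 15 to 24 nt, 0.871 and 1.25 at 25 to 29 nt, 0.639 and 0.839 at 30 to 32 nt, 0.543 and 0.720 at 33 to 36 nt and 0.390 and 0.662 at 37 to 50 nt. Val-AAC gave the same order from 25 to 50 nt, ending at 0.415 and 0.659. The few reads of 51 nt or more broke the order. Val-CAC had 49, 28 and 91 of them, which puts the knockouts at 0.560 and 1.33 times, and Val-AAC had 4, 9 and 9, at 2.21 and 1.61 times. In RPM the 29-nt reads of the wild type lay between those of the knockouts. Val-CAC had 982, 873 and 1242 RPM and Val-AAC 413, 372 and 519 RPM. The fitted log2 fold change was 0.11 at 29 nt in both (SE 0.38 and 0.43) and -0.42 for Val-CAC at 32 nt (SE 0.31, edgeR's quasi-likelihood test, adjusted p = 0.635).

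Other tRNAs of the libraries varied in this. Of 18 other anticodons with at least 1000 first-class reads in every library, the 29-nt share was higher in both knockouts in 7 and lower in both in 8. The 23-nt share was higher in both in 7 and lower in 1, and the 31-nt share was higher in 2 and lower in 10. The 23-nt shares of these other anticodons were small, in the wild type at most 0.991% (Gly-TCC), against 5.54% in Val-AAC and 3.80% in Val-CAC. Some lay near 0, as in Gly-GCC with 0.000405%, 0.000658% and 0.00108%.

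Of 89 valine fragments tested, 1 passed the threshold, the 50-nt first-class read of Val-TAC, at the upper limit of the gel. It had 152 reads in the wild type against 21 and 28, or 10.1, 1.36 and 1.32 RPM (log2 fold change -2.90, SE 0.63, edgeR's quasi-likelihood test, adjusted p = 0.000596, range over the alternatives 0.00141 to 0.145). With TMM factors it did not pass. Its share of the class was 9.59% (8.24 to 11.1%), 2.55% (1.67 to 3.87%) and 1.72% (1.19 to 2.47%). Reads of 51 nt or more, above the labelled gel limit, held 6.44%, 7.05% and 6.38% of the class.

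The 50-nt reads of the other valine tRNAs were lower in both knockouts too. Val-CAC had 436, 99 and 198 reads, or 28.9, 6.42 and 9.35 RPM (log2 fold change -1.87, SE 0.62, edgeR's quasi-likelihood test, adjusted p = 0.0935). DESeq2 called this fragment (adjusted p = 0.00904). Val-AAC had 72, 15 and 42 reads, or 4.77, 0.973 and 1.98 RPM (log2 fold change -1.67, SE 0.65, edgeR's quasi-likelihood test, adjusted p = 0.180). Of the 15 tested 50-nt features of other tRNAs, 9 were fitted below 0, with a median of -0.23. Among all 18 tested 50-nt features of the first class, 2 passed as higher in the knockouts, both of other tRNAs. Only 1, that of Val-TAC, passed as lower.

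**Figure D5:**
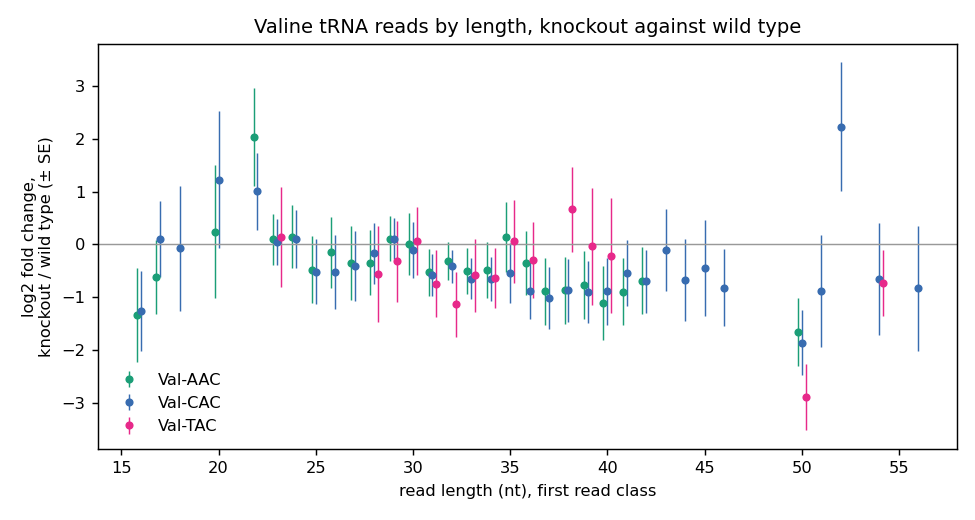
Fitted log2 fold change, knockout over wild type, of each tested first-class valine fragment against read length, with bars of ± 1 SE. Most points lie below 0 above 30 nt, and the lowest are the 50-nt reads, at -2.90 for Val-TAC, -1.87 for Val-CAC and -1.67 for Val-AAC.

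Over all fragments by anticodon, class and length, 18 of 834 tested passed (2.16%), 10 higher (1.2%) and 8 lower (0.959%). With TMM factors 0 passed, but under column sums 32 higher and 5 lower. Among the 89 valine fragments 1 was lower and 0 were higher. At an unadjusted p under 0.05 the valine counts were 5 lower and 1 higher, and DESeq2 called 2 lower. Fitted values were below 0 in 67 of the 89 against 422 of all 834, with medians of -0.53 and -0.01. Both knockouts were below the wild type in 58 valine fragments (65.2%) against 338 of all (40.5%), and above it in 8 against 281. A fragment could enter the test on the reads of 1 library alone. Entry through the wild type favours values below 0, and entry through 1 knockout values above it. The 38-nt second-class reads of Val-AAC, at 2.52, 0.584 and 0.520 RPM, entered through the wild type. Lengths of 1 tRNA, and tRNAs that share reads, are not independent, so these counts carry no test.

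The valine tRNAs are members of 4 lists of related tRNAs. The first list holds 9 tRNAs whose 5′ pieces are plentiful in epididymis and sperm, and in it Glu-CTC was higher (log2 fold change 0.86, SE 0.14) and Gly-GCC lower (-0.54, SE 0.077) in the knockouts, and the median was -0.29, as over all anticodons. Over all 45 anticodons tested 11.1% passed, 2.22% as higher and 8.89% as lower, and no list was tested as a set. Of the 3 DNMT2 substrates in the list, Gly-GCC was lower, the same call as in the first list, and Val-AAC and Asp-GTC (-0.091) did not pass. Of 8 tRNAs with A as first anticodon base, Thr-AGT was lower (-1.29, SE 0.30), and the median was -0.05. Of 11 tested alanine, isoleucine, leucine and valine tRNAs 0 passed edgeR's quasi-likelihood test, with a median of 0.16, and Val-TAC had the lowest fitted value. With miRNA reads left out of the library size none of the Glu-CTC, Gly-GCC and Thr-AGT calls passed (adjusted p = 0.0547, 0.744 and 0.409), with DESeq2 only that of Glu-CTC did, and without a dispersion trend only that of Thr-AGT. For reads of 34 nt or longer the sign of Gly-GCC turned, to 0.81, which passed as higher in the knockouts (edgeR's quasi-likelihood test, adjusted p = 0.00241).

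By distance between the pairs of knockout to wild-type log2 ratios over 40 anticodons, with 2 ratios each, the tRNA most like Val-CAC was SeC-TCA (distance 0.028) and the most like Val-AAC was Arg-ACG (0.038). Val-AAC and Val-CAC were 0.17 apart. Val-TAC was nearest to Trp-CCA and Gln-CTG, both at 0.20, and had neither of the other valine tRNAs among its 5 nearest.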

How the data were processed

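Small RNA of mouse epididymis was measured in 1 wild-type and 2 Alkbh3-/- libraries. The authors deposited unnormalized read counts per RNA class, per tRNA gene, and, 1 table per library, per tRNA gene in 2 undescribed read classes. Lists of read lengths with their counts are deposited beside them (unit other). Per the submitters' processing notes, mm10 was the build and the tools included cutadapt, whose version they do not name. The aligner and counter, and the handling of reads that match several genes, are not given in the sources used. The gene table holds 59.4%, 59.4% and 59.1% of the tRNA class reads and the per-library ones between 94.1% and 95.5%, and valine reads were 1.61 to 1.63 times as many in the latter.

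Counts were summed per anticodon, per read class and per length, and tested two-sided with edgeR 4.0.16 (R 4.3.3): filterByExpr, library size as the sum over 5 RNA classes, no composition factor, adjusted p threshold 0.05. With 1 residual degree of freedom the prior degrees of freedom were infinite, so each p-value uses the spread fitted across features of similar count. The SE was taken as log2 fold change over the square root of F. The steps were tested on simulated data. DESeq2 1.42.0 was an alternative. Likeness used log2(RPM + 1). Wilson 95% intervals cover counting error only. In full were named the 3 anticodons, genes with at least 1000 wild-type reads or most reads of an anticodon, the 3 leading lengths per class, and anything past the threshold. Members and lists were chosen with earlier results of these data known. Marker genes were not analysed here.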

Additional observations from a re-analysis of the deposited data

How the results depend on the processing

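The alternatives were other library sizes (TMM factors, column sums, no miRNA reads), DESeq2, no filter and a filter of 50 reads, no dispersion trend, the per-library counts, other length limits, and each knockout left out. No valine anticodon, gene or class sum passed under any of those with a test. Without either knockout, 1 library a group remains and the values carry no test. Signs turned under an alternative fit in 1 of 3 anticodons, 2 of 19 genes, 1 of 6 class sums and 7 of 89 fragments. Among the results named above, Val-AAC was at 0.017 with DESeq2. The gene tRNA-Val-CAC-1-1 was 0.11 with TMM factors, 0.11 with column sums, 0.091 without miRNA reads and 0.024 with DESeq2. With 1 knockout left out it ranged from -0.39 to 0.045, and tRNA-Val-CAC-3-1 from -0.059 to 0.19. First-class Val-AAC was 0.057 with TMM factors and 0.0062 with column sums. With 1 knockout left out the 29-nt reads ranged from -0.15 to 0.33 for Val-AAC and from -0.17 to 0.34 for Val-CAC, the negative values without knockout replicate 2. The count of valine fragments that passed as lower was 0 with TMM factors, where the 50-nt Val-TAC read was at -2.84, and 2 with DESeq2. The share of first-class reads of 33 nt or longer, knockout minus wild type, was -2.81 points for Val-AAC, -4.26 for Val-CAC and -2.06 for Val-TAC. It was -3.96, -5.03 and -3.84 points with a limit of 32 nt, and -0.89 for Val-AAC and -2.28 for Val-CAC with 34 nt. Over all tRNAs the calls higher and lower were 0 and 2 for anticodons without a dispersion trend, 1 and 2 under column sums, 2 and 1 under DESeq2, and 3 and 0 from 34 nt on. For single genes they were 12 and 6 with DESeq2, 2 and 20 without a dispersion trend and 11 and 11 from the per-library counts. For class sums they were 3 and 0 under DESeq2, 1 and 1 under column sums, and 0 and 0 without a dispersion trend. For fragments they were 7 and 3 without miRNA reads, 26 and 6 with DESeq2, 5 and 4 with no filter, 6 and 3 with the stricter filter and 0 and 3 without a dispersion trend. The causes were not tested beyond what these settings change. No paired analysis was possible because the wild type is 1 library with no replicate number. Depth limits the rare reads: a 38-nt second-class count of 9 to 49 reads carries wide counting error.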
